A study of Mus musculus with 6 samples.

Results

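The Sp100, Sp110 and Sp140 gene cluster on mouse chromosome 1 was examined for DPPA4 occupancy in mESCs and 2-cell-like cells (2CLCs). The genes were 8 of the 55413 annotated on the assembled chromosomes: Sp100, Sp110, Sp140, C130026I21Rik, A530032D15Rik, Gm10553, G530012D18Rik and A630001G21Rik. They were chosen because earlier results on these same lists showed many GFP-positive-specific peaks here, so every count of such peaks below is a description and carries no test. All peaks of both lists between 85 and 86 Mb were taken, which gave 152 regions of the 99695 in all. The cluster, from chr1:85000001-85781143 (mm10), held 133 of them. A block of single-copy genes, Cab39, Itm2c and Gpr55, at chr1:85790941-85963507, held 16, and 3 lay elsewhere in the window.

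The cells were a BL6/129 hybrid mESC line named EHMT2-dTAG-mcherry-mervl-gfp, grown in FBS/LIF, in which EHMT2 carries a degron and GFP reports activity of the MERVL retroviral promoter. All 6 libraries came from cells given dTAG for 72 h, which degrades the tagged EHMT2, so both states compared share this treatment and none of the libraries is untreated. Of these, 2 DPPA4 CUT&RUN libraries were from GFP-negative cells (mESCs), 2 were from GFP-positive cells (2CLCs), and IgG was profiled in 1 library of GFP-negative cells and 1 library of bulk cells. The deposited files were 2 peak lists, each pooled over the 2 libraries of its state, so there is no spread between replicates for any value. Neither EHMT2 loss nor the MERVL reporter can be checked in peak lists.

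SP100, SP110 and SP140 are the speckled proteins, chromatin readers that pair a SAND domain with oligomerisation and, in some forms, PHD and bromodomain modules. SP100 is a constituent of PML nuclear bodies, and the family is induced by interferon and known for its part in antiviral and antibacterial defence. In mice the locus has expanded: relatives of Sp100 and Sp140 lie side by side in the reference, and in some wild house mice the array is long enough to be seen as a stained band on the chromosome. DPPA4 acts with its partner DPPA2 as a DNA-binding activator of genes that are switched on in the early embryo and in 2CLCs.

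The GFP-positive-specific peaks with the highest −log10 q lay on 1 promoter sequence that recurs in the cluster. RefSeq (GRCm38.p6) gives a 300-base promoter for A530032D15Rik and for C130026I21Rik, both relatives of Sp140, and for Sp140 itself. These 3 promoters share a gap-free stretch of 255 bases that differs at 1 position, an identity of 99.6%. The sequences are shown because the 3 highest −log10 q values among the GFP-positive-specific regions fell on them. Each is written on the strand of its gene, the shared bases are in capitals, and the differing base is left in lower case. Counted from 1 at the first capital, Sp140 differs from both relatives by G109A, with the Sp140 base given first.
A530032D15Rik promoter, chr1:85109804-85110103, minus strand: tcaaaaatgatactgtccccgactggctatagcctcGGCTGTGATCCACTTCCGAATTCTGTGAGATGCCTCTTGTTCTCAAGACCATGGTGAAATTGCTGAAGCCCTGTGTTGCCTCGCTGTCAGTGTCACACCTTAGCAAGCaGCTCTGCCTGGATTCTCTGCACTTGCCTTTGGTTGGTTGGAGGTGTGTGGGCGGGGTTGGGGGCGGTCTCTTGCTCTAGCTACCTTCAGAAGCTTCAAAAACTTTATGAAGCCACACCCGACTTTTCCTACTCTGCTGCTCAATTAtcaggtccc
C130026I21Rik promoter, chr1:85270517-85270816, minus strand: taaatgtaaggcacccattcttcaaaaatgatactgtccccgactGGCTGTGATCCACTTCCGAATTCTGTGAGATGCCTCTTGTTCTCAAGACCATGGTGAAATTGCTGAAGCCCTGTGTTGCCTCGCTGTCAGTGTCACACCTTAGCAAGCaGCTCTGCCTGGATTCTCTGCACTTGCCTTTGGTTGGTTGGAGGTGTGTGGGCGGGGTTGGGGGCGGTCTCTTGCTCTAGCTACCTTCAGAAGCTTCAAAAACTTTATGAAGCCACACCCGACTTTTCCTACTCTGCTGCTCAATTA
Sp140 promoter, chr1:85600453-85600752, plus strand: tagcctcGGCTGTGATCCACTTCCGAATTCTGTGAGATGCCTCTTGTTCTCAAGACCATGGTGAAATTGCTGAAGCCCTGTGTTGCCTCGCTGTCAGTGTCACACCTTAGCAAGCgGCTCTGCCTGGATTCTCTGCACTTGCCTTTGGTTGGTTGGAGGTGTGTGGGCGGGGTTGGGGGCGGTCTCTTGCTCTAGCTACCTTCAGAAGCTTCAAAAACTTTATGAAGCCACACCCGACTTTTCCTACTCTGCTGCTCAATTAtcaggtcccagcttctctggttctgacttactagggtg

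At C130026I21Rik the region chr1:85269443-85271039 had 180 fragments at its summit in the GFP-positive list, a fold enrichment of 6.25 over background and a −log10 q of 34.7, where q is the peak caller's p adjusted over the genome. The region chr1:85597442-85601565 spans the start of Sp140 and the divergent start of Sp110, a SAND-domain protein linked to resistance to intracellular bacteria, and had 213 fragments, 5.32-fold and a −log10 q of 34.5. At A530032D15Rik the region chr1:85107265-85110475 had 239 fragments, 4.13-fold and a −log10 q of 29.6. The summits lay 49 bp upstream of the annotated start of C130026I21Rik, 58 bp upstream of that of A530032D15Rik and 238 bp inside Sp140. None of the 3 had a peak in the GFP-negative list. The promoters are repeats of each other: the median count of their 31-mers (all runs of 31 bases, either strand) in the genome was 3, all inside the window, which is these copies themselves. Since the authors placed a read with several matches at 1 of them, the 3 values cannot be assigned to single copies.

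Fragments and background were recovered from the fold enrichment and the −log10 p of each peak, as described under processing. Pileups are given as scaled fragments, the unit in which each list was set against its background, and are compared between lists on the inference that both used 1 control. They reached 80.1 scaled fragments at C130026I21Rik (95% Poisson interval 68.8 to 92.7), 94.7 at Sp110 and Sp140 (82.4 to 108) and 106 at A530032D15Rik (93.3 to 121). At the same background, the lowest pileup that would have passed in the GFP-negative list was 25.4, 32.4 and 43.2 scaled fragments. The GFP-positive pileups were thus 3.16, 2.92 and 2.46 times the calling level of the GFP-negative list. Intervals cover counting error only, as the fragments of a list come from 2 pooled libraries.

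Over the whole cluster the GFP-positive list had 131 peaks and the GFP-negative list 17, or 16.8 and 2.18 per 100 kb. GFP-positive peaks covered 11.7% of the cluster sequence and GFP-negative peaks 1.47%. Overlapping peaks were merged into regions, which are called common where both lists had a peak and specific where 1 list had it. By this rule 118 of 133 regions were GFP-positive-specific (88.7%, Wilson 95% interval 82.2 to 93.0), 13 were common and 2 were GFP-negative-specific. The interval treats regions as independent, which regions of copied sequence need not be, since a read with several matches was placed at 1 of them. Of all regions in the genome, 18.4% were GFP-positive-specific. In the single-copy block, 11 of 16 regions were GFP-positive-specific (68.8%, 44.4 to 85.8), 3 were common and 2 GFP-negative-specific, with 14 peaks in the GFP-positive list and 5 in the GFP-negative list. With peaks of a background under 5 alone, an alternative chosen after seeing the data, 16 of 24 cluster regions were GFP-positive-specific (66.7%), and the share of the block stayed at 68.8%. The 24 include regions, several of them common, in the single-copy sequence inside and beyond Sp100. The 66.7% is therefore not the share of the copied sequence alone.

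**Figure D1:**
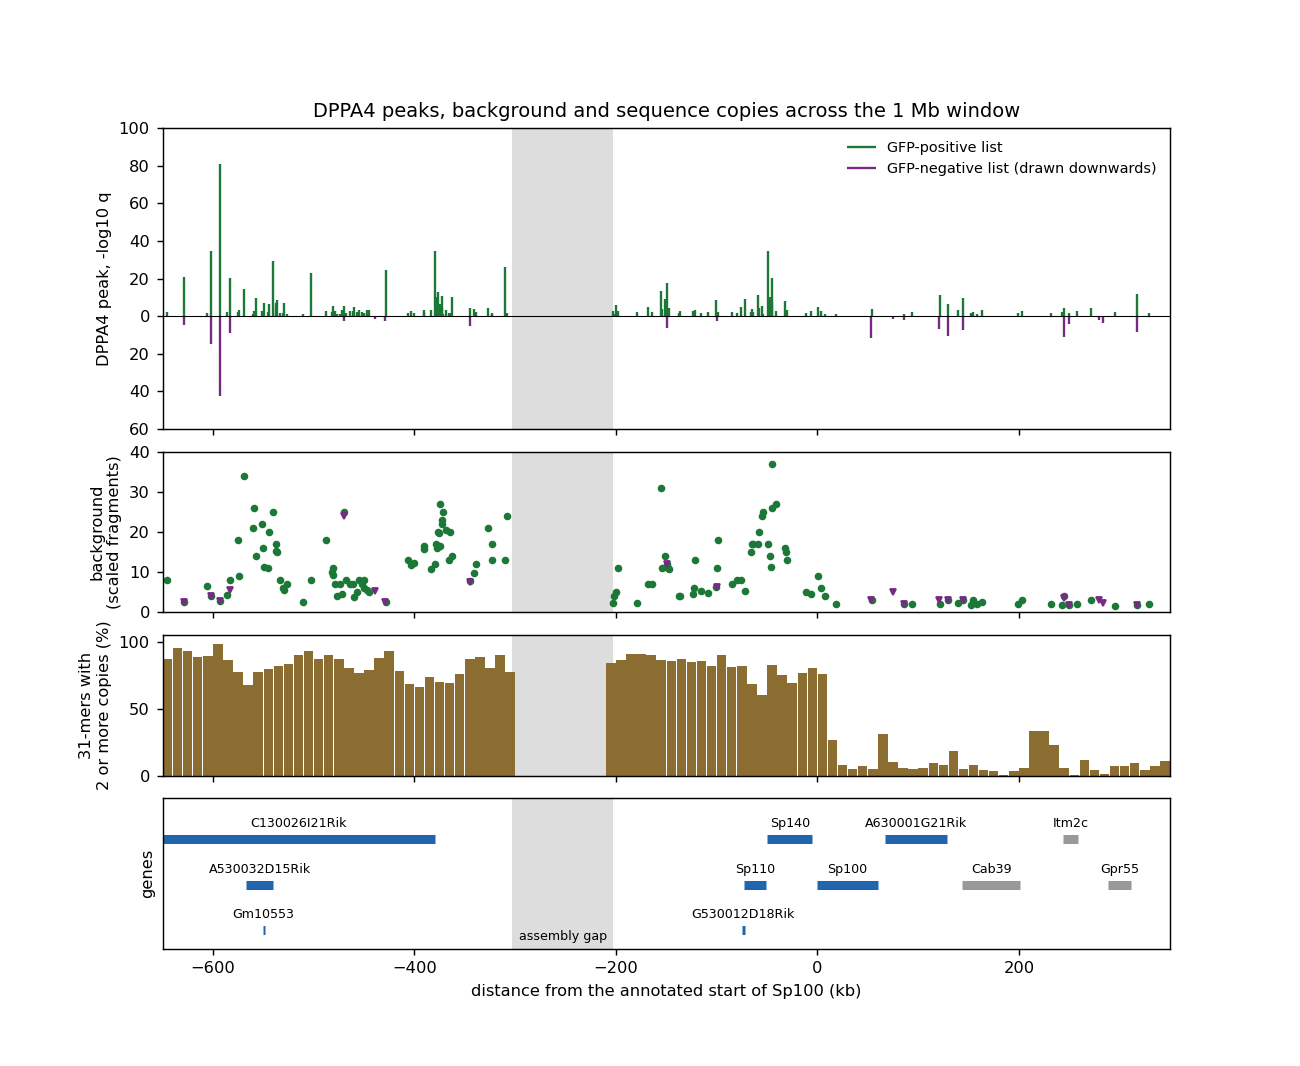
The x axis is the distance in kb from the annotated start of Sp100. From top to bottom the panels show −log10 q of each region's strongest peak (GFP-positive list upwards, GFP-negative list downwards), the background at those peaks in scaled fragments (circles GFP-positive, triangles GFP-negative), the percentage of 31-mers with 2 or more copies in 10-kb bins, and the genes (blue, listed; grey, single-copy block). Background and copies are high to the left and drop about 10 kb inside Sp100, and the grey band is an assembly gap of 100.0 kb.

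The copied sequence ended inside Sp100. In 10-kb bins the median 31-mer occurred 2 or more times in the genome in 57 of 57 bins with sequence up to 85660000, which lies 10 kb downstream of the start of Sp100, and in 0 of the 34 bins after it. Of the 31-mers of the cluster 69.5% had 2 or more copies, against 9.18% in the block, and 63.5% against 1.45% recurred inside the window itself. In the copied bins 116 of 126 regions were GFP-positive-specific (92.1%, 86 to 95.6), 9 were common and 1 GFP-negative-specific. In the single-copy bins the classes were 15 of 26 (57.7%, 38.9 to 74.5), 8 and 3. GFP-positive peaks stood at 21.9 per 100 kb in copied and 6.76 in single-copy bins, whereas GFP-negative peaks stood at 2.11 and 3.24. The bins were set from the sequence alone, but the split was made with the peaks already known.

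The background under the peaks followed the same boundary. GFP-positive peaks in copied bins had a median background of 11 scaled fragments (range 2.32 to 37), against 2.11 (1.59 to 4.0) in single-copy bins. Over all GFP-positive peaks of the genome the median background was 1.88. In the reference the median 31-mer of the cluster has 3 copies. Background of 10 or more was found at 70 of the 131 peaks of the cluster and at 0.492% of all GFP-positive peaks. No source names the control. At most shared summits compared, the backgrounds of both lists were equal or in 1 fixed ratio. At 70 of the 759 where both were whole numbers, the GFP-positive list had the higher one. Both lists were taken to share 1 control, in which case a difference in background between mESCs and 2CLCs was not measured. No IgG library of GFP-positive cells was among the samples. The number of copies in these cells is not known from the lists, and its part in the peaks was not tested.

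Over this background most cluster peaks passed at a low fold. The 118 GFP-positive-specific regions had a median fold enrichment of 2.57 (range 1.7 to 6.25), and 87 were under 3-fold. In the whole GFP-positive list the lowest fold that passed was 3.0 at a background under 2, 2.54 at 2 to 5, 2.11 at 5 to 10 and 1.44 from 10. The median summit held 65 fragments, against 21 in the 11 GFP-positive-specific regions of the block and 20 in those of the genome. A −log10 q of 5 or more was reached by 31 of the 118 and of 10 or more by 14, while 32 were under 2. None of the 11 in the block reached 5.

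**Figure D2:**
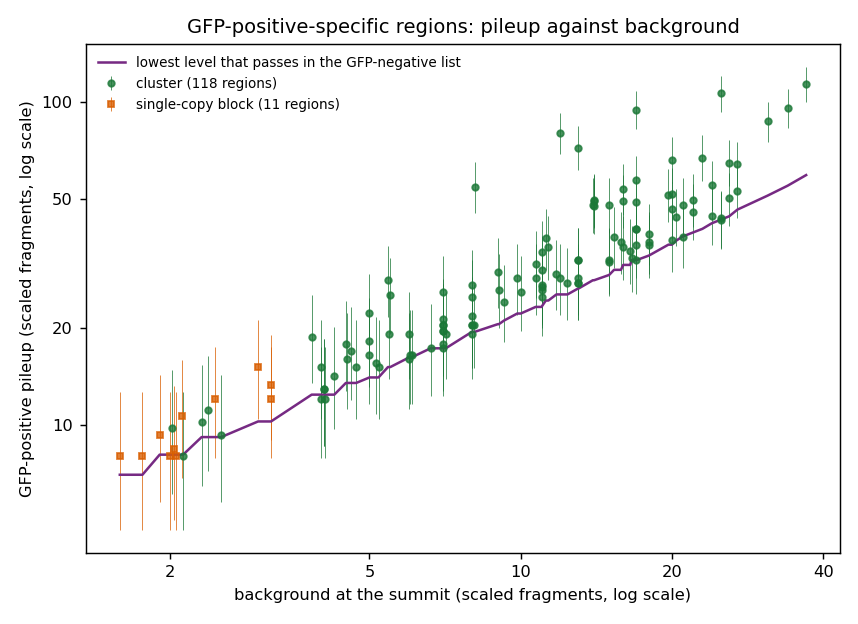
Each point is a GFP-positive-specific region of the cluster (green circles) or of the single-copy block (orange squares), with its background on the x axis and its GFP-positive pileup on the y axis, both in scaled fragments on log scales; bars are 95% Poisson intervals. The purple line is the lowest pileup that would pass in the GFP-negative list, and 111 of 118 cluster regions lie at or above it, most of them close to it. That they reach the line follows from the calling threshold, apart from rounding to whole fragments.

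Most of these regions lay near the level at which the GFP-negative list would also have called them. Of the 118 in the cluster, 111 had a GFP-positive pileup at or above the GFP-negative calling level, and in 42 the lower bound of the Poisson interval was also above it. The count of 111 was set in advance, apart from rounding to whole fragments. Every GFP-positive peak had passed a −log10 p of 3.418 at its background, and the GFP-negative list began at 3.302. The median pileup was 1.18 times the GFP-negative calling level (range 0.967 to 3.16), and 5 regions were at 2 times or more. These 5 were the 3 shared promoters, the region chr1:85147397-85148262 at 2.81 times and the region chr1:85339654-85340846 at 2.72 times. The last 2 were named after their values were seen. In the block 9 of 11 were at or above the calling level, a count set in advance in the same way. The median there was 1.15 times, and in 1 of 11 the lower bound was above the level.

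At the common regions both lists have a pileup, so both states can be set side by side. In the copied bins the GFP-positive pileup was higher at 8 of 9 common regions, with a median ratio of 1.65 (range 0.975 to 2.96), and at 6 of 9 the Poisson intervals of the lists were apart. In the single-copy bins of the window it was higher at 3 of 8, with a median ratio of 0.805 (0.591 to 1.29), and the intervals were apart at none. Of all 34849 common regions in the genome with recovered fragments, the GFP-positive pileup was higher in 28.4%, with a median ratio of 0.791, and higher with intervals apart in 1.53%. The common regions of the window were not chosen for this ratio, although they lie in a window chosen for its GFP-positive peaks. In 5 of the 13 common cluster regions the median 31-mer around the summit occurred 137.5 to 1661.5 times in the genome. These 5 were among the 6 with intervals apart. A read with several matches was placed at 1 of them, so these pileups cannot be assigned to these coordinates. The genome share was not matched for copies, as 71.2% of common regions on chromosome 1 had a median count of 1.

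The strongest common region of the window, chr1:85056963-85058243, had 96 fragments in mESCs and 183 in 2CLCs. These were 51.8 (42.0 to 63.3) and 81.4 (70.0 to 94.1) scaled fragments, with −log10 q of 42.2 and 80.9. The region chr1:85046921-85048550 had 59 and 119 fragments, or 31.9 and 52.9 scaled fragments, with −log10 q of 14.7 and 34.5. The region chr1:85220573-85223936 had 22 and 79 fragments, or 11.9 and 35.1 scaled fragments, with −log10 q of 2.71 and 24.5. All 3 were higher in 2CLCs with intervals apart, and all 3 lay in soft-masked repeat sequence. The 2 GFP-negative-specific regions of the cluster were weak: chr1:85210829-85211491 had 28 fragments, 2.52-fold and a −log10 q of 1.71, and chr1:85724480-85724900 had 27, 2.6-fold and 1.58.

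**Figure D3:**
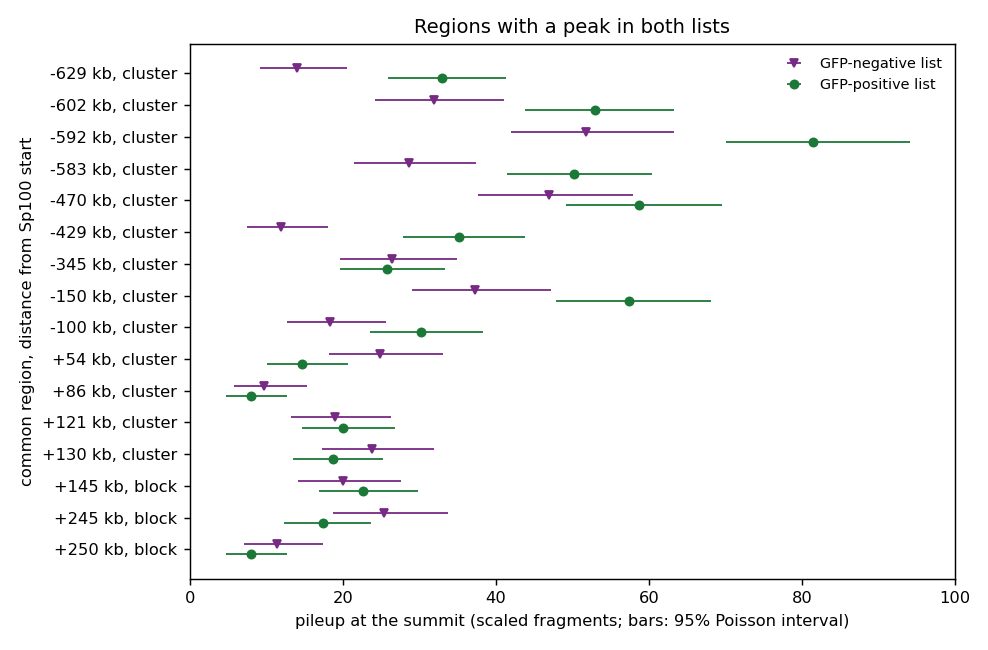
Each row is a region with a peak in both lists, placed by its distance from the start of Sp100 on the y axis, with the pileup in scaled fragments on the x axis (triangles GFP-negative, circles GFP-positive; bars, 95% Poisson intervals). From −629 to −100 kb the GFP-positive value is the higher in 8 of 9 rows, and from +54 kb onwards the intervals of the lists overlap in every row shown.

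The members were then compared gene by gene. A region was assigned to a gene or promoter by its summit, not by its edges, and promoters ran from 2.5 kb before to 0.5 kb after a start. All 8 listed genes had a GFP-positive-specific region in the body or the 2.5 kb before it, as did 12.9% of all annotated genes, and 6 of the 8 had one in a promoter, as did 5.47% of all genes. Since the genes were chosen for these peaks, nothing is read from the excess. The single-copy neighbours had them too: 5 in Cab39, 2 in Itm2c and 1 in Gpr55.

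Sp140 and Sp110, which lie head to head, had no peak in the GFP-negative list. Sp140, a bromodomain reader expressed in immune cells, had 11 GFP-positive-specific regions with 35 to 255 fragments and folds of 1.93 to 5.32. Its highest pileup, 113 scaled fragments at chr1:85604260-85604642, stood over the highest background of the cluster, 37, and so was only 3.01-fold. Sp110 had 9, with 63 to 213 fragments and folds of 1.7 to 5.32. Of the 31-mers in the gene body 76.5% had 2 or more copies in Sp140 and 64.3% in Sp110. The 2 genes share the region over their starts, so its fragments count in both.

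Sp100, the founding member, lay across the boundary and had few peaks. Its first annotated start was in no region of either list. The nearest summit was 682 bp downstream, in chr1:85650438-85650904, with 67 fragments, 3.08-fold and a −log10 q of 4.99 in the GFP-positive list alone. The other 3 GFP-positive-specific regions of Sp100 had −log10 q of 2.91, 1.39 and 1.31, and all 4 had a copy number of 2 or more. Its 1 common region, chr1:85703276-85704084, lay in single-copy sequence near an alternative start and was the stronger in mESCs, with 46 fragments (24.8 scaled, 18.2 to 33.1) against 33 in 2CLCs (14.7 scaled, 10.1 to 20.6), and the intervals overlapped. The promoters of Sp100 and of Sp110 are shown because the first was outside and the second inside a GFP-positive-specific region. Both hold a match of 21 bases, in capitals, at an identity of 90.5%.
Sp100 promoter, chr1:85649738-85650037, plus strand: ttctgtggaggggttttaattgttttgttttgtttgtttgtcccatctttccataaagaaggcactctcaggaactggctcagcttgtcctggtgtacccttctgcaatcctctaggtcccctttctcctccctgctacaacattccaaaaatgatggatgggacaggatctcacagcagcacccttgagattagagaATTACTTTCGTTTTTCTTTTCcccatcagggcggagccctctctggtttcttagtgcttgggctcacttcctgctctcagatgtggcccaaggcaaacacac
Sp110 promoter, chr1:85598761-85599060, minus strand: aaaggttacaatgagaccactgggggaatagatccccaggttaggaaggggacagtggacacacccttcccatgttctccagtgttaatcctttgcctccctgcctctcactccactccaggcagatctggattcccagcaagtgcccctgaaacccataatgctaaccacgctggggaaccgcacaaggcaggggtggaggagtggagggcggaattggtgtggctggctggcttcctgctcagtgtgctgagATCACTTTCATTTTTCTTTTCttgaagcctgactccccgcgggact
The median 31-mer of these promoters had 4 copies at Sp100 and 3 at Sp110, all within the window, so the Sp100 promoter was as much copied sequence as those under the peaks. RefSeq gives another Sp110 promoter, chr1:85603842-85604141, which is not shown and whose median 31-mer had 748 copies. The lack of a peak at the Sp100 promoter in these lists says that no pileup there passed the threshold, not that DPPA4 was absent.

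C130026I21Rik is the longest gene of the cluster, with 278 kb that begin before the window and overlap A530032D15Rik, Gm10553 and several pseudogenes. It held 59 regions, of which 52 were GFP-positive-specific and 6 were common. It also held 1 GFP-negative-specific region, as did 25.3% of all genes. Its GFP-positive folds ran from 1.78 to 21.2. A530032D15Rik had 10 GFP-positive-specific regions with 60 to 239 fragments over a background of 11 to 26. Gm10553, a gene of 0.372 kb inside it, had 2, with 80 and 103 fragments, and these are also counted in both longer genes. G530012D18Rik had 1, with 61 fragments and 3.13-fold, whose summit was 1.63 kb before its start.

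A630001G21Rik, on the single-copy side, differed in class from the rest. Of its 5 regions 3 were common, 1 was GFP-negative-specific and 1 GFP-positive-specific. It had a common promoter region, as did 29.5% of all genes, and its background stayed between 2 and 3 in the GFP-positive list. Its body had 7.32% of 31-mers with 2 or more copies, close to the 4.3% of Cab39 and 6.21% of Gpr55. Cab39, a scaffold of the LKB1 kinase complex, and Itm2c, a membrane protein, had common regions at their starts, the strongest of the block. At Cab39, chr1:85793044-85795001 had 37 and 51 fragments, or 20 and 22.7 scaled fragments. At Itm2c, chr1:85894214-85896330 had 47 and 39, or 25.4 and 17.3 scaled fragments. The strongest specific regions of the block were weak in both directions, at −log10 q of 4.38 and 3.29 in 2CLCs and of 3.82 and 2.03 in mESCs.

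**Figure D4:**
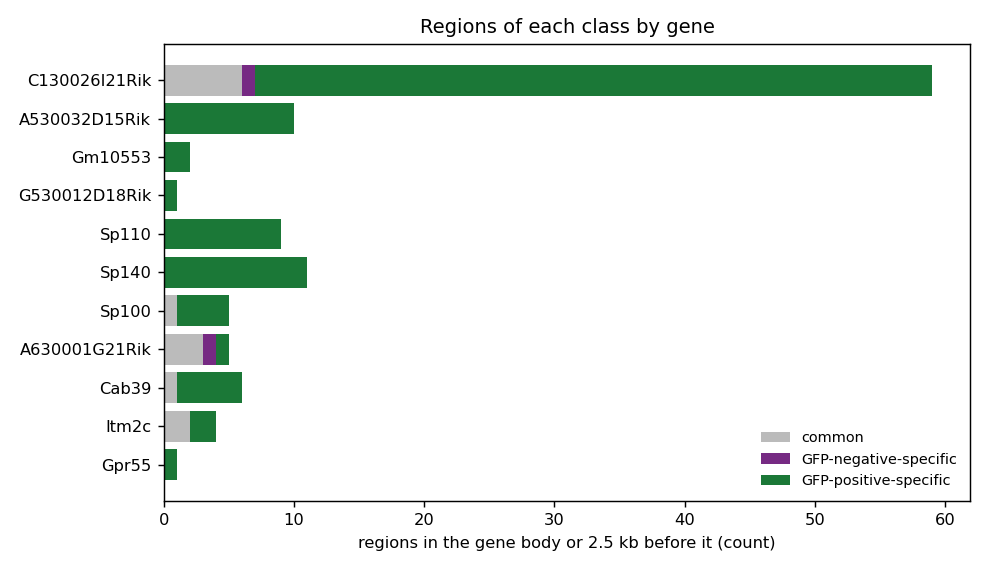
Bars give the number of regions of each class (grey common, purple GFP-negative-specific, green GFP-positive-specific) in the body or the 2.5 kb before the start of each gene, in genome order. The first 6 genes from the top have 1 to 52 GFP-positive-specific regions and common ones only in C130026I21Rik, while A630001G21Rik has 3 common regions of 5. Overlapping genes share regions.

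The sequence under the summits was described next. The cluster was named as amplified and the block as single-copy when they were chosen, so the contrast in copies between them is a description and not a finding. Copy number is the median genome count of the 31-mers in 200 bp around the summit. Of the 133 cluster regions 120 had a copy number of 2 or more (90.2%, 84.0 to 94.2), against 2 of 16 in the block (12.5%, 3.5 to 36.0) and 1154 of 6196 on chromosome 1 outside the window (18.6%), or 441 of the 1323 GFP-positive-specific ones there (33.3%). It was 2 or more in 109 of the 118 GFP-positive-specific regions, in 10 of the 13 shared by both lists and in 1 of the 2 called only in mESCs. For 76 of the 120 the median count of these 31-mers inside the window equalled their median count in the genome. Copy number was 10 or more in 14, which is 10.5%, against 14.5% of all regions and 25% of the GFP-positive-specific ones on chromosome 1 outside the window. The copies of the cluster were thus mostly few and, by these medians, mostly local.

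By alignment of 300 bp around the summits, 39 of 133 regions (29.3%, 22.3 to 37.6) had a relative among the other cluster regions at 90% identity over at least 200 bp, and 0 of 16 in the block did. They formed 16 families of 2 to 4 regions. A first family of 4, soft-masked over a median of 99% of its bases, had a median of 313 copies in the genome. It comprised 3 common regions and 1 GFP-positive-specific region, with GFP-positive folds of 5.22 to 10.2. A second of 4 was GFP-positive-specific throughout, with 58 to 196 fragments, folds of 2.06 to 3.29 and a median of 2 copies. Another 3 families had 3 regions each. The first of these was split between the classes, the second was the 3 promoters shown above, and the third was GFP-positive-specific throughout, with 57 to 61 fragments and folds of 2.34 to 4.05.

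The first family is shown as 120 bases, aligned without gaps to the bases around the summit of its first member, with bases common to all 4 in capitals. They differ at 6 of 120 positions.
chr1:85020829-85020948, plus strand, common: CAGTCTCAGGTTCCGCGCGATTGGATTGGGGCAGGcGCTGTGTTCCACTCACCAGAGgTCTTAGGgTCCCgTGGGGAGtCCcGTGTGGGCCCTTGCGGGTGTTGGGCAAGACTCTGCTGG
chr1:85067040-85067159, plus strand, common: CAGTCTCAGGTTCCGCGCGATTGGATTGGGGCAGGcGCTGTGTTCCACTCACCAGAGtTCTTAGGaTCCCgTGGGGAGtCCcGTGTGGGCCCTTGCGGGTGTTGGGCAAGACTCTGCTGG
chr1:85221210-85221329, minus strand, common: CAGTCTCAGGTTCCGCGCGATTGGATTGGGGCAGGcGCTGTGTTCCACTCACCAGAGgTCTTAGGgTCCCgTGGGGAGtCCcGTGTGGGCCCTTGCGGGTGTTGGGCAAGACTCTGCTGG
chr1:85340141-85340260, plus strand, GFP-positive-specific: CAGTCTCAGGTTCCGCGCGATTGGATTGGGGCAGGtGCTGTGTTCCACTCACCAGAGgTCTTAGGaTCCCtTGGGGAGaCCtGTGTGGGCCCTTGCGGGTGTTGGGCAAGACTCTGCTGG
The family of 3 that was split between the classes is shown in the same way. Its 3 members are 97.5% identical over 120 bases and differ at 3 positions, and 2 of them had a peak in the GFP-negative list.
chr1:85080821-85080940, plus strand, GFP-positive-specific: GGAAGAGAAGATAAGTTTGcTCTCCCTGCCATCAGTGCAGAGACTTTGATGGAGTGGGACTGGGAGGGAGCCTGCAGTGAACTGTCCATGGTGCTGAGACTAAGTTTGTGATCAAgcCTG
chr1:85179765-85179884, minus strand, common: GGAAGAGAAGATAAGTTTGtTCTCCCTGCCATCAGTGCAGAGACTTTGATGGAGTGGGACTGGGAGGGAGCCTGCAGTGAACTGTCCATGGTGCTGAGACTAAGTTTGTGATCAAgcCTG
chr1:85500377-85500496, minus strand, common: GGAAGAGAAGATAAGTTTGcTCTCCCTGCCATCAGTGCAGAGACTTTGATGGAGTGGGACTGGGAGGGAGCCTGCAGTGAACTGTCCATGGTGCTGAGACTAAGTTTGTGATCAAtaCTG
In this family the GFP-positive-specific copy, in chr1:85080491-85081237, had 215 fragments over a background of 34 and a fold of 2.76. The common copy in chr1:85178876-85180111 had 87 fragments in mESCs and 132 in 2CLCs over backgrounds of 24 and 25. The common copy in chr1:85499791-85500803 had 69 and 129 over a background of 12 in both. The GFP-positive-specific copy thus stood over the highest background of the 3.

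Common regions of the cluster were more often repeats of high copy number. Of 14 regions with over 50% soft-masked bases and 10 or more copies, 5 were common (35.7%), and of the other 119, 8 were (6.72%). The common regions had a median of 11 CpG in 300 bp, the GFP-positive-specific ones 2, and on chromosome 1 the medians were 15 and 4. The core of the site bound by DUX, an activator of 2-cell genes, GATTCAATC on either strand, was in the 300 bp around 0 of 133 cluster summits, 13 of 6348 on chromosome 1 (0.205%) and 49 of 32851 RefSeq promoters (0.149%). It was in 0 of the 7 promoters that RefSeq gives for the listed genes. These letters are rare, and their absence says nothing about the factor.

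Other windows with many GFP-positive-specific regions were set beside the cluster. The share was 92.2% of 90 regions at chromosome 7, 11 to 12 Mb, 92.0% of 87 at chromosome 5, 15 to 16 Mb, 75.0% of 136 at chromosome 12, 87 to 88 Mb, and 54.9% of 153 at chromosome 1, 34 to 35 Mb. A copy number of 2 or more was found at 80%, 95.4%, 56.6% and 5.23% of their regions. The median background of their GFP-positive peaks was 1.41, 7.0, 1.66 and 2.2, against 11 in the cluster. High background thus accompanied copied sequence in the cluster and on chromosome 5, and not on chromosomes 7 and 12. With 1 pooled list per state, none of these differences could be tested over samples.

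Other genes of the SAND-domain family elsewhere in the genome served as background. All 4 other SAND-domain genes listed (Aire, Deaf1, Gmeb1 and Gmeb2, transcription regulators) had a common promoter region, against 29.5% of all genes. Of the 4, 2 also had a GFP-positive-specific one, against 5.47% of all genes, and none had the latter alone. In the cluster, 2 of the 8 listed genes, Sp100 and A630001G21Rik, had a common promoter region, near the share over all genes.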

How the data were processed

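DPPA4 CUT&RUN was profiled in 2 GFP-negative and 2 GFP-positive libraries. Per the methods and the submitters' notes, the authors trimmed reads, aligned them to mm10 with STAR 2.7.10, keeping a read with several best matches at 1 of them, removed duplicates with Picard 2.26.0, removed high-signal blacklist regions with bedtools 2.30.0 and SAMtools 1.14, and called peaks with MACS2 2.2.6 on the pooled libraries of each state. The control library is not given in the sources used here. The deposited values were a fold enrichment over background, −log10 p and −log10 q at each summit (lowest −log10 q 1.3) and a score that repeats the −log10 p. Depth is unknown, as totals are not in the lists.

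The members, lists and windows were chosen with earlier results of these data known. All listed genes were described, with the 3 regions of highest −log10 q of each class in the cluster, the 2 of each class in the block, and the largest sequence families, of which 3 tied for the last place. A second background list of genes is not reported here. Peaks of both lists were merged where they overlapped by 1 bp, and a region was common where it held peaks of both lists. Genes were GENCODE vM21, and promoters ran from 2.5 kb before to 0.5 kb after a transcript start. The fold and the −log10 p of a peak were solved together for its fragments and its background under the MACS2 Poisson model, which gave whole fragments for 99.996% of the GFP-negative and 99.989% of the GFP-positive peaks (−log10 p within 0.001), with more than 1 solution for 0.354% and 0.695%. On 2653 and 2773 simulated peaks with known values, the fragments of 100.0% were recovered. A fragment weighed 0.5399 for GFP-negative and 0.4448 for GFP-positive cells, whose fragment total was thus 1.21 times larger. At 2129 shared summits the backgrounds of the lists were equal or in 1 fixed ratio, 1.04, at 689 of 759 where both were whole and 1285 of 1285 where neither was. The other 70 whole pairs were all higher in GFP-positive cells, and 85 summits had 1 whole value and were not compared. From this 1 control was inferred for both lists. Copies were counted as 31-mers in GRCm38.p6, whose chromosome 1 has the coordinates of mm10, and relatives were found with BLAST+ 2.17.0. Python 3.11.15, numpy 2.4.6, pandas 2.3.3 and scipy 1.17.1 were used. Shares carry Wilson and fragments exact Poisson 95% intervals, which cover counting error only. The Wilson intervals treat regions as independent, which regions of copied sequence need not be. With 1 pooled list per state no test over samples was possible.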

Additional observations from a re-analysis of the deposited data

How the results depend on the processing

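Of 35 alternatives over 7 results, 20 stayed close to the reported value (counts within 1.5 times, shares inside its Wilson interval), among them both other overlap rules, single peaks, and 80% or 95% identity for relatives. The 118 GFP-positive-specific regions of the cluster became 35 when both lists were held to −log10 q values from 5 upwards, and 15 with the 10000 strongest peaks of each list. Of the 118 themselves 31 reached such values. The rest of the 35 were common regions whose GFP-negative peak was filtered out. Under 3 alternatives chosen after seeing the data the 118 became 33 at a fold of at least 3, 16 at a background under 5, and 42 where the lower bound of the pileup reached the GFP-negative calling level. The 33 also take in such common regions, as 31 of the 118 had that fold. The GFP-positive-specific share, 88.7%, became 81.4%, 93.8%, 76.7% at a fold of at least 3 and 66.7% of 24 regions at a background under 5. Several of those 24 lay in single-copy sequence. In the block the share fell from 68.8% to 0.0% at such −log10 q values, where 2 regions were left, and the 10000 strongest peaks left none. Cluster regions with 2 or more copies went from 90.2% to 73.7% with 51-mers, and 10.5% had 10 or more. Listed genes with a GFP-positive-specific region went from 8 to 4 under that threshold and to 6 with the body alone. Promoter regions of these genes went from 16 to 10 within 1 kb of the start and to 6 under that threshold. Stricter thresholds leave fewer peaks by construction, and for the rest the cause was not tested. No paired analysis was possible because the libraries of each state were pooled into 1 list, and for the same reason no library could be left out. If both lists share 1 control, as inferred, a background particular to 2CLCs was not measured, and pileups that did not pass are not in the lists, so a GFP-negative value exists only where a peak was called.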

Other observations

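Most annotations of the cluster are not among the 8 listed genes, and these also held GFP-positive-specific regions. GENCODE places 33 genes there: 8 are protein coding, 13 pseudogenes, 5 antisense RNAs, 3 lincRNAs, 3 miRNAs and 1 rRNA. By summit, 25 of the 33 had a GFP-positive-specific region in the body or the 2.5 kb before it (12.9% of all genes) and 21 had one in a promoter (5.47%). A GFP-negative-specific region in the same span was found in 4 of 33 (25.3% of all genes) and a common promoter region in 3 (29.5%), both below the share over all genes. The transcribed pseudogene Gm2619 held 44 GFP-positive-specific regions, 3 common and 1 GFP-negative-specific. Gm16026 held 14, of which 7 were in its promoters, and Gm6264 held 13 beside 1 common region. The antisense RNA A530040E14Rik held 6, with 3 in promoters. These genes overlap each other and the listed ones, so a region is counted in each gene whose span holds its summit, and in none that it meets only by its edges, and they were named after their values were seen.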
